A study of Mus musculus with 9 samples.

Results

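White adipocytes are the lipid-storing cells of fat tissue, and a muscle taken whole holds some of them between its fibres and bundles. The genes described here are 9 white adipocyte genes taken from a list of names, set with earlier results of these data known: Adipoq, Lep, Retn and Cfd, which encode secreted adipokines, Cidec and Plin1, which encode proteins of the lipid droplet surface, and Pck1, Fabp4 and Lipe, which encode enzymes and a carrier of fatty acid metabolism. Of these 9, 8 were measured, out of 22180 genes with a probe set of 1 gene. No probe set was matched to Cfd, and it was not analysed here.

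The mice were male, 12 weeks old and of strain C57BL/6J, with no treatment or allele named in the labels. RNA from 9 of their skeletal muscles was measured on GeneChip Mouse Gene 2.0 ST arrays, 1 array per muscle. By general anatomy, the arrays form a hindlimb group of 4 (rectus femoris, tibialis anterior, soleus and gastrocnemius), a shoulder and forelimb group of 3 (trapezius, supraspinatus and triceps) and a head group of 2 (masseter and digastric). Muscles of 1 region stand in for replicates, so that the spread within a region mixes muscle identity with measurement error. The labels do not state how many animals each array represents. All levels are log2 values, where a difference of 1 is a doubling of signal, and the level of 1 gene cannot be set against that of another. In whole tissue, fewer cells of a type and less RNA per cell cannot be told apart.

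In a white adipocyte, fatty acids are made or taken up, esterified to triglyceride and stored in a large droplet. Perilipin and CIDEC coat the droplet, and hormone-sensitive lipase, the product of Lipe, takes part in breaking its triglyceride down again. The cell also secretes adipokines, among them adiponectin and leptin, which act on other tissues, skeletal muscle included.

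The arrays were close in overall level, with medians over the probe sets from 3.34 to 3.44. The spread of values was narrower on 3 arrays, triceps, rectus femoris and gastrocnemius, with an SD over probe sets from 1.92 to 1.96, than on the other 6, where it ran from 2.03 to 2.08. The labelled tissue was checked on 8 skeletal muscle markers. Their mean level was 12.25 in trapezius and ran from 11.72 to 12.30 in the other 8 muscles, so the trapezius array carried a muscle signal within the range of the rest.

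The promoters of the measured genes were read from RefSeq (GRCm38.p6), as the 250 bases before the annotated start. Windows were at hand for 8 of the 9 genes, among them Cfd, and Fabp4 was not searched. Both strands were searched for 5 motifs, with no overlap between the motif letters found. Shown here are the windows of Adipoq, Pck1 and Lep, the only ones of the 8 genes in which any motif was found. Each motif that was found was in the window of 1 of the 8 genes. No motif was found for Retn, Cidec, Plin1, Cfd and Lipe. Adipoq and Pck1 stand among the genes with the largest trapezius differences, as does Cidec, and Lep does not. The capitals mark the motif letters that were found. The windows lie at chr16:23146286-23146535 for Adipoq, chr2:173152823-173153072 for Pck1 and chr6:29059971-29060220 for Lep, all on the plus strand.
Adipoq: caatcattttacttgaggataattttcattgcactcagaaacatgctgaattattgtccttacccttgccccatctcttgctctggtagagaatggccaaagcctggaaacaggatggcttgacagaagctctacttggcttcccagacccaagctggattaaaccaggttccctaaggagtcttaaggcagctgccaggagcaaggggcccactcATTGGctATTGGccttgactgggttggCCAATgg
Pck1: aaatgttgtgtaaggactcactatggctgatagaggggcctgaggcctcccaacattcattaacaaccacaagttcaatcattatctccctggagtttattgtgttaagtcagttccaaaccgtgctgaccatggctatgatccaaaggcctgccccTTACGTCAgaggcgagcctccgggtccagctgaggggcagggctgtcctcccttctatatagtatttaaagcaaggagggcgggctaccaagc
Lep: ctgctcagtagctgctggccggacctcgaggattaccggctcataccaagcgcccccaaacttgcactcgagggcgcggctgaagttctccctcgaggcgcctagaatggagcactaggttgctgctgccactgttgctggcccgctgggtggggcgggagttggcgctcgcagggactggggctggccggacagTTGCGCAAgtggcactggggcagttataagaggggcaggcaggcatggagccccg
The Adipoq window held the CCAAT box letters CCAAT at 3 places, from 34 to 30 and from 27 to 23 bases before the start on the reverse strand and from 7 to 3 on the forward strand, and 33.8% of 32851 mouse promoter windows held these letters at least once. The Pck1 window held TTACGTCA, a form of the cAMP response element searched as TNACGTCA, from 93 to 86 bases before the start. Only 2.52% of all windows held it. In the Lep window TTGCGCAA, the palindrome recognised by C/EBP factors, stood from 55 to 48 bases before the start, and 0.164% of all windows held it. The TATA box letters TATAAA (12.4% of all windows) and the nuclear receptor motif AGGTCA (14% of all windows) were in none of the 8 genes' windows. A match of letters is a description of the window, not of a bound site.

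Adiponectin, the product of Adipoq, is made almost only by adipocytes and raises insulin sensitivity. Adipoq was at 4.34 in rectus femoris, 3.46 in tibialis anterior, 4.03 in soleus and 3.58 in gastrocnemius. It was at 6.67 in trapezius, 4.39 in supraspinatus and 3.98 in triceps, and at 2.97 in masseter and 3.16 in digastric. Trapezius stood alone at the top, supraspinatus and rectus femoris came next within 0.05 of each other, and both head muscles lay below all the rest. On 4 of the 9 arrays Adipoq was below the median gene of its own array, a median that ran from 3.79 to 3.95, so its low values lie where background cannot be told from expression.

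Retn encodes resistin, an adipokine that in mice is made by adipocytes. Retn was at 6.37 in rectus femoris, 5.85 in tibialis anterior, 6.38 in soleus and 5.61 in gastrocnemius. It was at 7.81 in trapezius, 6.58 in supraspinatus and 5.93 in triceps, and at 5.20 in masseter and 5.13 in digastric. The order was close to that of Adipoq, with trapezius first, supraspinatus second and the 2 head muscles last, and rectus femoris and soleus shared nearly the same level.

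Lep encodes leptin, the hormone that reports fat stores to the brain. Lep was at 2.49 in rectus femoris, 2.27 in tibialis anterior, 3.08 in soleus and 2.78 in gastrocnemius. It was at 3.07 in trapezius, 2.49 in supraspinatus and 2.11 in triceps, and at 2.35 in masseter and 2.49 in digastric. Lep was the exception among the 8 genes: soleus and trapezius were level, and its range over all muscles was 0.97. It lay below the median gene on all 9 arrays, and digastric, supraspinatus and rectus femoris had the identical value, so no order of the muscles can be read from it.

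Of the droplet proteins, CIDEC joins small droplets into large ones. Cidec was at 6.41 in rectus femoris, 4.75 in tibialis anterior, 5.55 in soleus and 5.29 in gastrocnemius. It was at 8.32 in trapezius, 6.03 in supraspinatus and 5.58 in triceps, and at 4.54 in masseter and 3.81 in digastric. Again trapezius was highest and the head muscles lowest, but rectus femoris, not supraspinatus, came second. In digastric Cidec lay below the median gene of the array, where background cannot be told from expression.

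Perilipin 1, encoded by Plin1, guards the droplet and opens it to lipases when it is phosphorylated. Plin1 was at 5.17 in rectus femoris, 4.09 in tibialis anterior, 4.45 in soleus and 4.79 in gastrocnemius. It was at 7.24 in trapezius, 5.24 in supraspinatus and 4.66 in triceps, and at 4.45 in masseter and 4.49 in digastric. Outside trapezius its range was 1.15, the lowest value was that of tibialis anterior, and the head muscles lay among the limb muscles.

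Pck1 encodes the cytosolic phosphoenolpyruvate carboxykinase, which in adipocytes supplies glycerol 3-phosphate for triglyceride synthesis and in liver and kidney makes glucose. Pck1 was at 6.10 in rectus femoris, 4.66 in tibialis anterior, 4.64 in soleus and 4.62 in gastrocnemius. It was at 9.23 in trapezius, 6.25 in supraspinatus and 5.33 in triceps, and at 3.73 in masseter and 4.35 in digastric. It had the widest range of the 8 genes, 5.50 over 9 muscles and 2.52 without trapezius, where Cidec ran wider, at 2.61. Within the hindlimb, rectus femoris stood apart from 3 muscles whose values lay within 0.05 of each other. In masseter Pck1 lay below the median gene of the array, where background cannot be told from expression.

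Fabp4, the fatty acid carrier aP2, is abundant in adipocytes and is also made by capillary endothelium and macrophages. Fabp4 was at 7.87 in rectus femoris, 8.52 in tibialis anterior, 8.996 in soleus and 7.18 in gastrocnemius. It was at 10.35 in trapezius, 8.81 in supraspinatus and 7.77 in triceps, and at 8.79 in masseter and 8.84 in digastric. Trapezius was highest as for the others, but below it the order was another one: soleus was second, both head muscles were above tibialis anterior, and rectus femoris was among the 3 lowest.

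Lipe encodes hormone-sensitive lipase, which muscle fibres also make. Lipe was at 5.40 in rectus femoris, 5.05 in tibialis anterior, 5.59 in soleus and 5.27 in gastrocnemius. It was at 6.72 in trapezius, 5.34 in supraspinatus and 5.37 in triceps, and at 5.37 in masseter and 5.47 in digastric. Apart from trapezius the muscles were close together, within a range of 0.55.

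**Figure D1:**
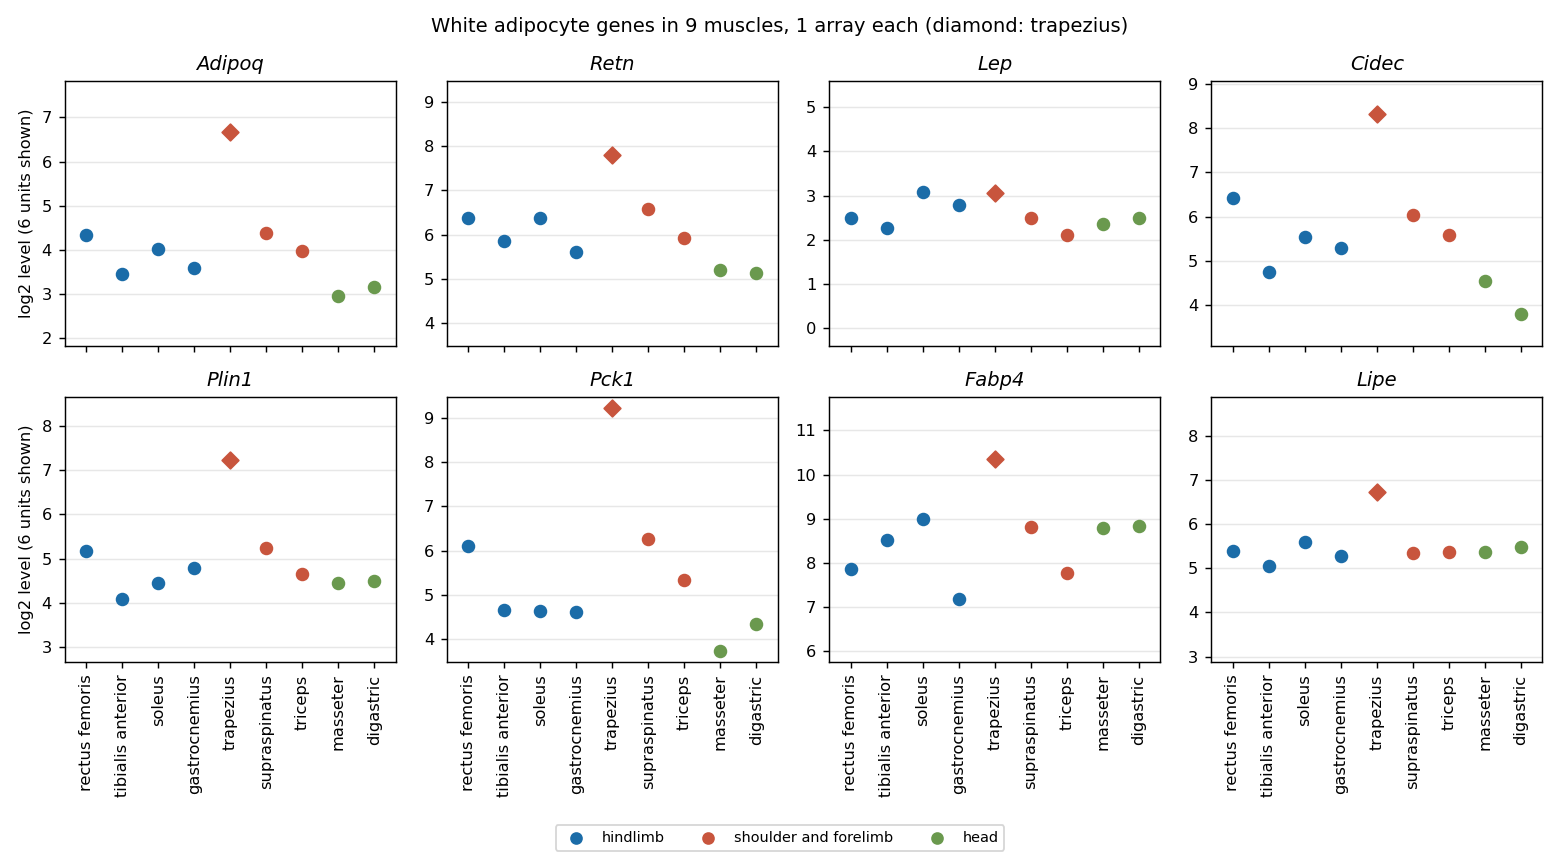
Log2 level (y axis, 6 units in every panel, with its own start) of 8 white adipocyte genes in 9 muscles (x axis), 1 array each, coloured by region. The diamond, trapezius, stands highest for every gene except Lep, for which trapezius is at 3.07 and soleus at 3.08.

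Trapezius was thus highest of the 9 muscles for 7 of the 8 genes, a place it held for 7.33% of all genes. Against the mean of the other 8 muscles, trapezius was higher by 4.27 for Pck1 (19.3-fold), by 3.08 for Cidec (8.45-fold), by 2.94 for Adipoq (7.66-fold) and by 2.57 for Plin1 (5.94-fold). The differences were 2.00 for Fabp4, 1.93 for Retn, 1.36 for Lipe and 0.56 for Lep. The median of the 8 differences was 2.29, and that over all 22180 genes was -0.00. A difference of at least 1 was found for 7 of the 8 genes, all but Lep, and for 0.636% of all genes, 141 in number. With 1 trapezius array these differences have no replicate check and no test.

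For each gene, the other 8 muscles varied less, by SD, than trapezius stood above their mean. Their mean was 4.96 ± 0.87 (SD, n = 8) for Pck1, 5.24 ± 0.84 for Cidec, 3.74 ± 0.53 for Adipoq, 4.67 ± 0.39 for Plin1 and 5.36 ± 0.16 for Lipe. Even above the next highest muscle, trapezius was higher by 2.98 for Pck1, 2.29 for Adipoq, 2.00 for Plin1, 1.91 for Cidec, 1.35 for Fabp4, 1.23 for Retn and 1.13 for Lipe. The range of the other 8 muscles was wider than this gap for Cidec (2.61), Fabp4 (1.82) and Retn (1.45). For Lep, trapezius was not above soleus. Ranked by the trapezius difference among 22180 genes, Pck1 was 3rd, Cidec 8th, Adipoq 10th and Plin1 15th. Fabp4 was 31st, Retn 37th and Lipe 71st, while Lep was 580th. Leaving out any 1 of the other muscles moved the median of the 8 differences between 2.24 and 2.36.

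Markers of other cell types were set beside this. Of 8 brown adipocyte markers, 4 were at least 1 higher in trapezius, as were 0.636% of all genes. Ucp1, the uncoupling protein that defines the brown adipocyte, was at 9.36 in trapezius and 5.10 in supraspinatus, against 2.19 to 2.72 in the other 7 muscles. In those 7 it lay below the median gene of the array, which ran from 3.79 to 3.95, so background cannot be told from expression there. Cidea, a droplet protein of brown fat, was at 9.22 in trapezius and 5.69 in supraspinatus, against 3.51 to 5.22 in the other 7. The mean of the brown list was 6.18 in trapezius, 4.67 in supraspinatus and 3.89 to 4.33 in the others, and its median difference between trapezius and the other 8 muscles was 1.08. Elovl3 and Otop1 were higher in trapezius by 2.14 and 1.65. The rest of the list did not pass 1: Prdm16 was higher by 0.51, Zic1 by 0.26, Dio2 by 0.16 and Cox8b by 0.14. Dio2 and Cox8b were highest in soleus, and Zic1 had the identical value in trapezius, rectus femoris and gastrocnemius. The white adipocyte genes were therefore high on the array that also had the highest Ucp1, Cidea, Elovl3 and Otop1. In mice a brown fat depot lies between the shoulder blades, and how much of the trapezius values comes from white or brown adipocytes was not tested.

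No other cell type list moved with trapezius in this way. None of 7 progenitor and fibroblast markers, 9 endothelial markers, 7 macrophage markers, 5 keratinocyte markers and 8 skeletal muscle markers was at least 1 higher there. Of all genes 0.636% were, so finding none in lists this short is near the share over all genes. List means in trapezius were 6.76 for progenitor and fibroblast, 6.13 for endothelium, 5.66 for macrophage and 3.06 for keratinocyte markers, each inside the range of the other 8 muscles, which was 6.66 to 7.18, 5.80 to 6.87, 4.84 to 6.48 and 2.81 to 3.23 in the same order. Salivary gland markers had a mean of 2.20 in trapezius and of 2.08 to 3.44 elsewhere, and 1 of 6, Amy1, was higher by 1.11.

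**Figure D2:**
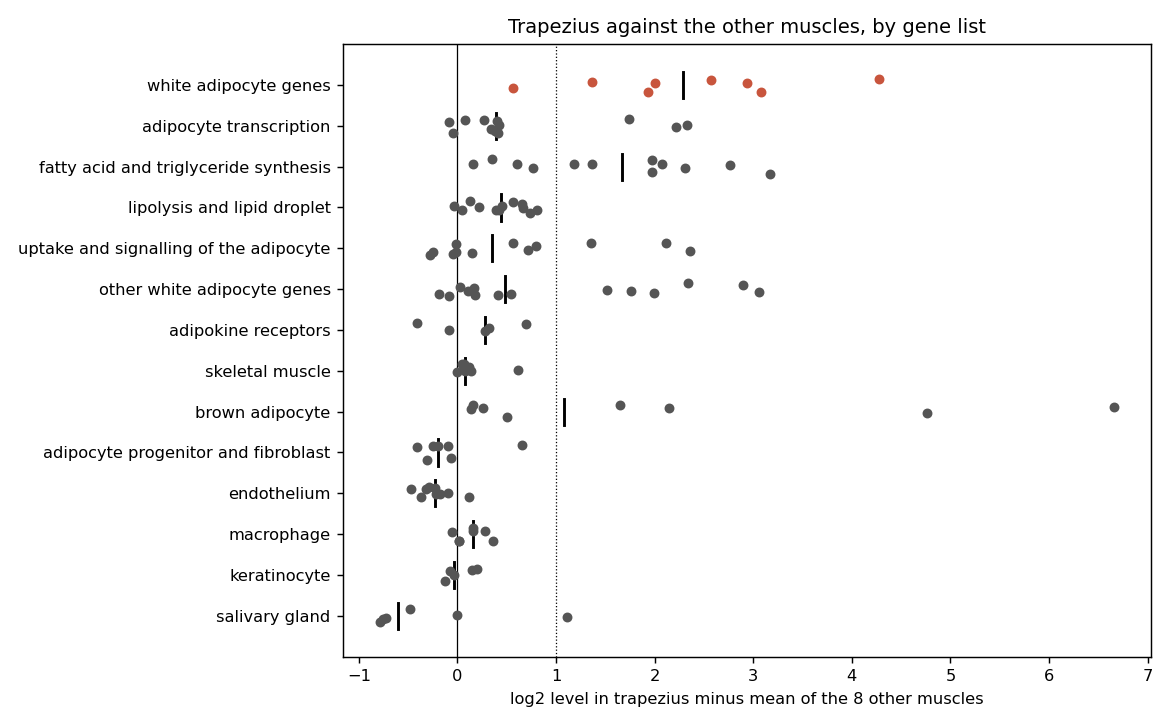
Difference in log2 level between trapezius and the mean of the other 8 muscles (x axis) for each measured gene (points) of 14 gene lists (rows), with each list's median as a bar and a dotted line at 1. The white adipocyte genes have a median of 2.29, fatty acid and triglyceride synthesis genes of 1.67 and brown adipocyte genes of 1.08.

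The wider adipocyte programme was read from lists of genes around the 8. Fatty acid and triglyceride synthesis stood out, with 8 of 12 measured genes at least 1 higher in trapezius and a list median of 1.67. Of all genes, 0.636% were at least 1 higher there. Fasn, the fatty acid synthase, was at 9.45 in trapezius and at 5.40 to 7.21 in the other muscles, and the desaturase gene Scd1 was at 9.40 in trapezius and 5.84 to 7.52 in the others. Elovl6, which lengthens fatty acids, was higher by 2.31, the acyltransferase genes Dgat2 and Agpat2 by 2.08 and 1.98, and Acaca, the acetyl-CoA carboxylase, by 1.97. Dgat2 was at 9.06 in trapezius, with soleus at 8.52 and digastric at 8.38. Gpam, which attaches the first acyl chain to glycerol phosphate, differed by 0.35.

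Among transcription factors and regulators of the adipocyte, 3 of 12 genes passed a difference of 1, with a list median of 0.39. Over all genes the share past 1 was 0.636%. Pparg, the master factor of adipogenesis, was at 6.88 in trapezius and 3.96 to 5.15 in the others, and its partner Cebpa was at 6.07 in trapezius and 3.41 to 5.002 in the others. Thrsp, a lipogenic regulator, was at 8.16 in trapezius and 5.47 to 6.62 in the others. Other white adipocyte genes had 6 of 14 past 1 (median 0.48), led by the haptoglobin gene Hp at 3.06 and the galectin gene Lgals12 at 2.90, a droplet-associated lectin of fat. Car3, also among the 6, was at 11.30 in trapezius and 11.34 in soleus, so trapezius was not its highest muscle. Uptake and signalling genes had 3 of 12 past 1 (median 0.35), with Trarg1, a regulator of glucose transporter traffic, at 2.36 and the phosphodiesterase gene Pde3b at 2.12, while Slc2a4, the insulin-responsive glucose transporter that fibres also make, was at -0.25.

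Among 12 further lipolysis and lipid droplet genes, none passed 1, which is near the share over all genes, 0.636%. Lipe, counted among the 8 genes, was higher by 1.36. The median of the 12 was 0.44 against -0.00 over all genes. Trapezius was the highest muscle for 4 of the 12, and for 7.33% of all genes. The largest differences were 0.80 for Plin5, a droplet protein of oxidative tissues, 0.73 for Pnpla2, the adipose triglyceride lipase, and 0.67 for Plin2. Plin5 was at 7.29 in trapezius and 7.35 in soleus, and Pnpla2 at 9.33 in trapezius and 9.34 in soleus, which was the highest muscle for both. The receptors for the adipokines had 0 of 5 past 1, again near the share over all genes, and a median of 0.28. Adipor2 was at 0.69, Adipor1 at 0.32 and the leptin receptor gene Lepr at -0.41.

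With trapezius set aside, the 8 genes still differed among the other muscles, by ranges of 0.55 for Lipe to 2.61 for Cidec. Each gene was centred on its own mean over the 8 arrays, and the mean of the 8 centred genes was highest in supraspinatus, at 0.55, and rectus femoris, at 0.43. Soleus followed at 0.25 and triceps at 0.00, and then gastrocnemius at -0.20, tibialis anterior at -0.26, digastric at -0.37 and masseter at -0.41. Supraspinatus was the highest muscle for Adipoq, Retn, Plin1 and Pck1, soleus for Fabp4 and Lipe, and rectus femoris for Cidec. Lep had its highest value in soleus, but it lay below the median gene on every array. How often each muscle was highest over all genes was not counted, so these places are a description only.

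Supraspinatus differed from the mean of the other 7 muscles by 1.48 for Pck1 (2.79-fold), 0.90 for Cidec, 0.80 for Retn, 0.74 for Adipoq and 0.65 for Plin1, and by -0.02 for Lep and Lipe. Its median over the 8 genes was 0.70, against -0.00 over all genes, and 1 of the 8, Pck1, was at least 1 higher, as were 0.14% of all genes. Rectus femoris differed by 1.33 for Cidec (2.52-fold), 1.30 for Pck1 (2.46-fold), 0.69 for Adipoq, 0.57 for Plin1 and 0.56 for Retn. Its Fabp4 differed by -0.55, its median was 0.57 against 0.02 over all genes, and 2 of the 8 genes were at least 1 higher, against 0.559% of all genes. Of the brown markers, Ucp1 was at 5.10 in supraspinatus and 2.47 in rectus femoris, and Cidea at 5.69 and 3.57 in these muscles. Cox8b and Dio2 were also higher in supraspinatus, at 10.81 and 3.25 against 9.90 and 2.50. Elovl3 (2.12 in both) and Otop1 (3.22 and 3.23) were level, and Prdm16 (4.22 and 4.36) and Zic1 (2.96 and 3.15) were lower in supraspinatus. The 3 arrays of narrower spread, rectus femoris among them, had the 3 lowest levels of Cox8b and of Dio2. Cox8b was at 10.67 in trapezius and highest in soleus, at 11.24. In supraspinatus and rectus femoris, Dio2, Elovl3, Otop1 and Zic1 lay below the median gene of the array. So did Ucp1 and Cidea in rectus femoris, where background cannot be told from expression. Supraspinatus and rectus femoris are 1 array each, and no test was made.

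The 8 genes did not move as 1 block. Over 9 arrays all 28 pairs of genes had positive correlations, from 0.44 to 0.98 with a median of 0.77 (Pearson), which trapezius shapes. Over the 8 arrays without trapezius the median was 0.21, the range -0.35 to 0.95, and 22 of 28 pairs were positive. Adipoq, Retn, Cidec, Plin1 and Pck1, a set picked after their values were seen, correlated at 0.55 to 0.95 over the 8 arrays (median 0.82, Spearman median 0.85, 10 pairs). Fabp4 correlated with the other 7 genes at -0.35 to 0.31, with a median of -0.18. For Lep the median was 0.15 and for Lipe 0.18. These coefficients describe 8 or 9 muscles that share an array platform and normalization.

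Below trapezius, the order of muscles for Fabp4 was set beside the other gene lists. The mean of 9 endothelial markers ran from 5.80 to 6.79 in hindlimb muscles, from 6.05 to 6.25 in shoulder and forelimb muscles and from 6.65 to 6.87 in head muscles. Over the 8 arrays without trapezius, Fabp4 correlated with that mean at 0.82 (Pearson) and 0.83 (Spearman), while the mean of the 8 white adipocyte genes did at -0.45. This was not particular to endothelium: the Pearson coefficient of Fabp4 was 0.88 with the adipokine receptors, 0.77 with uptake and signalling genes, 0.72 with brown adipocyte and 0.71 with lipolysis and lipid droplet genes. With trapezius included, the coefficient of Fabp4 with the endothelial mean was 0.40. The 3 arrays of narrower spread, gastrocnemius, triceps and rectus femoris, had the 3 lowest Fabp4 levels and the 3 lowest endothelial means, and the part of that spread in these coefficients was not tested. Digastric and masseter, low for Adipoq and Retn, were high for both Fabp4 and the endothelial markers, and the part of endothelium in the Fabp4 values was not tested.

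**Figure D3:**
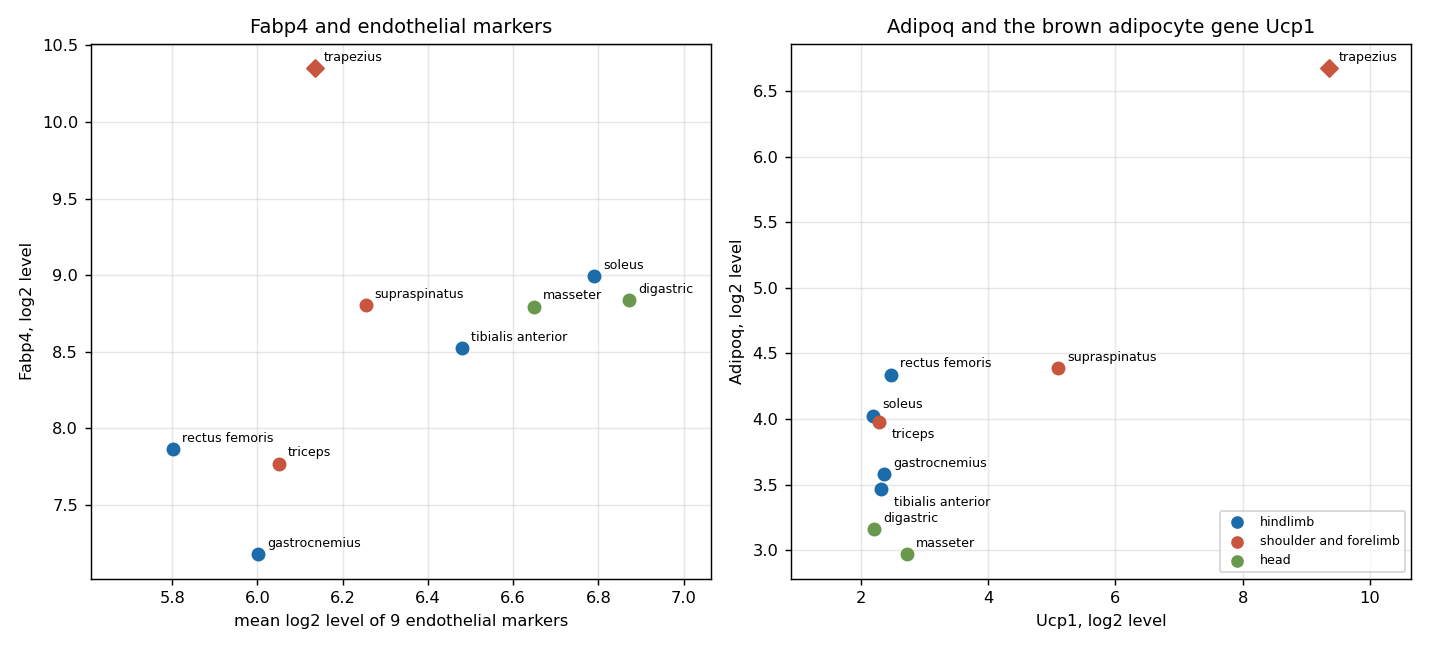
Left, Fabp4 log2 level (y axis) against the mean log2 level of 9 endothelial markers (x axis), and right, Adipoq log2 level (y axis) against Ucp1 log2 level (x axis), each point 1 muscle array coloured by region, with trapezius as a diamond. Trapezius has the highest Fabp4, 10.35, at an endothelial mean of 6.13, gastrocnemius, triceps and rectus femoris (the arrays of narrower spread) are lowest on both axes among the other 8, and supraspinatus is the other muscle with Ucp1 above 2.72.

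The first regional comparison set hindlimb against head muscles. None of the 8 genes passed an adjusted p of 0.05 in limma, and 0.00902% of all genes did, 2 in number, Hoxc10 and Nr4a1. The differences were positive for 6 of 8 genes, with a median of 0.51 against 0.04 over all genes. Cidec averaged 5.50 ± 0.69 in hindlimb muscles and 4.17 ± 0.52 in head muscles (SD, n = 4 and 2), a difference of 1.32 (SE 0.67, limma adjusted p = 0.453). Retn averaged 6.05 ± 0.39 in hindlimb and 5.17 ± 0.04 in head muscles, a difference of 0.89 with a 95% interval of -0.06 to 1.83 (limma adjusted p = 0.433). For Adipoq the means were 3.85 ± 0.41 in hindlimb and 3.06 ± 0.13 in head muscles (difference 0.79, limma adjusted p = 0.598). Fabp4 was at 8.14 ± 0.79 in hindlimb and 8.82 ± 0.03 in head muscles (difference -0.68, limma adjusted p = 0.672), a difference that was -0.056 on the 6 arrays of wider spread and 0.058 with the spread as a term in the fit.

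All 4 hindlimb muscles lay above both head muscles for Adipoq, Retn, Cidec and Pck1, 4 of the 8 genes, as they did for 11.4% of all genes. With the trapezius array left out, the differences were unchanged by construction and their standard errors were smaller, 0.41 for Cidec, 0.27 for Retn and 0.26 for Adipoq. Adjusted p-values then ran from 0.469 to 0.863 (limma), and 3 genes, Adipoq, Retn and Cidec, were under 0.05 before adjustment. Over all 22180 genes, 1055 were higher and 1270 lower at that level before adjustment. Among the 6 arrays of wider spread, Cidec differed by 0.97, Retn by 0.95, Pck1 by 0.61, Adipoq by 0.68, Lep by 0.25, Fabp4 by -0.056, Lipe by -0.10 and Plin1 by -0.20. Macrophage marker means ran from 5.29 to 5.84 in hindlimb muscles and from 4.84 to 5.29 in head muscles, and salivary gland means from 2.08 to 2.38 in hindlimb and from 2.94 to 3.44 in head muscles. The part of either in these differences was not tested.

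Shoulder and forelimb against head muscles gave the largest median difference of the 3 comparisons, with no gene of the 8 and 0% of all genes past the adjusted threshold in limma. Before adjustment 702 genes were higher and 832 lower at p under 0.05, and limma with trend and robust settings also called 0. All 8 differences were positive, with a median of 1.43 against 0.04 over all genes. Pck1 averaged 6.94 ± 2.04 in shoulder and forelimb muscles and 4.04 ± 0.43 in head muscles (SD, n = 3 and 2), a difference of 2.90 with a 95% interval of 0.88 to 4.92 (limma adjusted p = 0.712). Cidec averaged 6.64 ± 1.47 in shoulder and forelimb and 4.17 ± 0.52 in head muscles, a difference of 2.47 (interval 0.90 to 4.04, limma adjusted p = 0.685). Adipoq differed by 1.95 (limma adjusted p = 0.712) and Retn by 1.61 (interval 0.61 to 2.61, limma adjusted p = 0.685). These 4 genes were under 0.05 before adjustment.

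Trapezius carried much of this. Without it the median was 0.79, with 5 of 8 differences positive: 1.75 for Pck1, 1.63 for Cidec, 1.12 for Adipoq, 1.09 for Retn and 0.48 for Plin1. Those of Lep, Fabp4 and Lipe were -0.12, -0.53 and -0.07. Adjusted p-values without trapezius ran from 0.771 to 0.952 (limma), and Adipoq, Retn, Cidec and Pck1 were again under 0.05 before adjustment. Over all 22180 genes, 682 were higher and 722 lower at that level before adjustment. Every shoulder and forelimb muscle was above both head muscles for 5 of the 8 genes, the 4 named and Plin1, and for 15.2% of all genes. Supraspinatus and triceps alone were above both head muscles for the same 5 genes, and for 23.2% of all genes. The size of the median, not the direction for these 5 genes, depended on trapezius. Markers of other cell types also differed between these regions. All 7 macrophage markers had positive differences, with a median of 0.85 over 9 arrays and 0.99 without trapezius. None of the 9 endothelial markers did, with medians of -0.67 and -0.69. None of these markers passed the adjusted threshold in limma, and their part in the values of the white adipocyte genes was not tested.

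Hindlimb against shoulder and forelimb muscles gave negative differences for 7 of the 8 genes, with a median of -0.96 against -0.01 over all genes. None passed the adjusted threshold in limma, and 0.00451% of all genes did, which is 1 gene, Hoxc10. Pck1 averaged 5.003 ± 0.73 in hindlimb muscles and 6.94 ± 2.04 in shoulder and forelimb muscles (SD, n = 4 and 3), a difference of -1.93 with an interval of -3.62 to -0.24 (limma adjusted p = 1). It was the only 1 of the 8 under 0.05 before adjustment. Over all 22180 genes, 408 were higher and 402 lower at that level before adjustment. Adipoq differed by -1.16, Cidec by -1.15 and Plin1 by -1.09, and the intervals of all 3 reached above 0. No gene of the 8 had every hindlimb muscle below every shoulder and forelimb muscle, as 2.3% of all genes did.

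Here the trapezius array made up most of the difference. Without it the median was -0.26, Pck1 differed by -0.79, Adipoq by -0.33, Plin1 by -0.32 and Cidec by -0.31, each with an interval that held 0 (limma adjusted p = 0.999). Adipoq averaged 4.18 over supraspinatus and triceps, within the hindlimb range of 3.46 to 4.34. On the 6 arrays of wider spread, which leave out triceps, rectus femoris and gastrocnemius and keep trapezius, the median was -1.43. Macrophage markers had 0 of 7 positive differences here, with a median of -0.36 over 9 arrays and -0.44 without trapezius, and their part was not tested. The 3 comparisons share groups, so their values are not independent of each other.

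**Figure D4:**
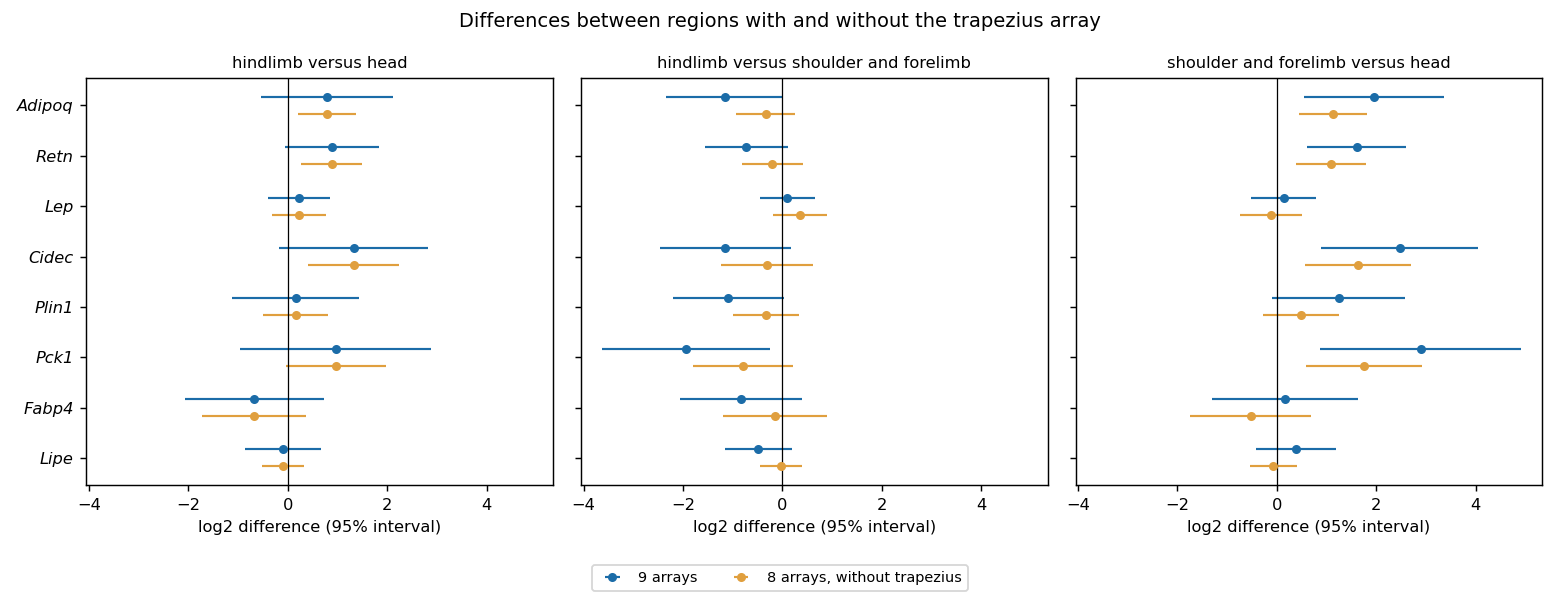
Log2 differences between regions (x axis) with 95% intervals from limma for 8 white adipocyte genes (rows), in blue over 9 arrays and in orange over 8 arrays without trapezius. Without trapezius the shoulder and forelimb difference from head muscles is 1.75 for Pck1 and 1.12 for Adipoq, and every hindlimb difference from shoulder and forelimb muscles has an interval that holds 0.

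None of the genes in the other adipocyte lists passed the adjusted threshold in any regional comparison in limma. Between shoulder and forelimb and head muscles, 10 of 12 fatty acid and triglyceride synthesis genes had positive differences (median 0.53), as had 11 of 14 other white adipocyte genes (median 0.57) and 9 of 12 transcription regulators (median 0.37). Without trapezius these were 8 of 12 (median 0.10), 11 of 14 (median 0.17) and 8 of 12 (median 0.24). Between hindlimb and head muscles the medians were -0.13 for synthesis genes, 0.13 for other white adipocyte genes and -0.04 for regulators.

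Genes were then ranked by likeness to the mean of the 8 white adipocyte genes, by Pearson correlation over the 9 arrays among 5933 genes with a range of at least 1. The 10 most alike were Slc25a1 (0.99), Sfxn1 (0.98), Scd1 (0.97), Tmem45b (0.97), Lgals12 (0.97), Cdo1 (0.96), Mrap (0.96), Slc36a2 (0.96), Fasn (0.96) and Trarg1 (0.96). Trapezius shapes these coefficients. Over the 8 arrays without it they ran from 0.72 for Trarg1 and 0.74 for Slc36a2 to 0.93 for Slc25a1, whose range there was under 1. Slc25a1, the mitochondrial citrate carrier, was at 7.52 in trapezius and at most 6.02 elsewhere, and Cdo1, the cysteine dioxygenase, was at 8.13 in trapezius and 3.65 to 5.74 elsewhere. Sfxn1 encodes a mitochondrial serine transporter and Mrap an accessory protein of the melanocortin receptor. Over the 8 arrays without trapezius, with 5635 candidates, the 10 were Cyp2e1 (0.94), Tmem273 (0.91), Pip5kl1 (0.89), Scd1 (0.89), Fasn (0.87), Olfr168 (0.86), Sgk2 (0.86), Cdo1 (0.85), Mrap (0.85) and Cyp2c65 (0.84).

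Between these rankings 4 genes were shared, Scd1, Fasn, Cdo1 and Mrap. Cyp2e1, a cytochrome P450 gene of liver and fat, was at 8.25 in trapezius, 7.02 in rectus femoris and 6.90 in supraspinatus, against 4.76 in masseter and 4.63 in digastric. By contrast, Tmem273, Pip5kl1, Olfr168, Sgk2 and Cyp2c65 were alike only while trapezius was left out, with coefficients of 0.41, -0.15, 0.29, -0.11 and -0.07 over the 9 arrays. Olfr168 reached at most 2.13, Cyp2c65 2.24, Sgk2 3.81 and Tmem273 3.88, while the median gene of the arrays ran from 3.79 to 3.95. Most values of Olfr168, Cyp2c65, Sgk2 and Tmem273 thus lie where background cannot be told from expression. They were picked from 5635 candidates over 8 arrays.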

How the data were processed

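The deposited values are log2 expression levels per probe set of GeneChip Mouse Gene 2.0 ST arrays, 1 array for each of 9 muscles. GCRMA, a background correction and normalization, is named without a version in the submitters' processing notes, and values between 0.12 and 13.49 fit a log2 scale. No detection calls were used, so low values cannot be told from background, and precision is limited by having 9 arrays.

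Of 41345 probe sets the array's gene table named 1 gene for 23521 and several for 1814. Symbols were checked through Entrez identifiers against the GRCm38.p6 gene table, which matched 23328 and changed 0. Where a gene had several probe sets (1082 genes), that of highest mean was kept, which left 22180 genes, and each of the 8 white adipocyte genes had 1. The genes and lists were chosen with earlier results of these data known.

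A mean per region was fitted to the 9 arrays with limma 3.58.1 (R 4.3.3), with 3 two-sided contrasts, Benjamini-Hochberg adjustment over all genes and a threshold of 0.05. Every adjusted p comes from limma. The fit had 6 residual degrees of freedom, 10.4 after moderation. On simulated data of 22180 genes, a true log2 change of 1 was called in 47.4% of changed genes between hindlimb and head, 65.4% between hindlimb and shoulder and forelimb, and 37% between shoulder and forelimb and head muscles. A change of 2 was called in 97.4%, 99.4% and 96.6% in the same order. These rates are averages over randomly picked genes, with independent noise of each gene's fitted SD, and do not hold for every gene. The fitted SD was 0.998 for Pck1 and 0.778 for Cidec. Neither was called between shoulder and forelimb and head muscles, at differences of 2.90 and 2.47. Genes are named as the 9 listed, as members of the lists, as the 10 most alike by correlation (range at least 1, predicted genes, clones, microRNAs and LOC symbols left out) or as past the threshold. Where only 1 array stood on a side no test was made, and a log2 difference of 1 was counted. The alternatives were quantile normalization, averaged probe sets, genes above the median gene, trend and robust settings, only the arrays compared, trapezius counted with the head muscles, the narrower value range as a term, only the 6 wider arrays and each array left out.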

Additional observations from a re-analysis of the deposited data

Results flagged for a closer look

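Single muscles stood apart for some of the genes, as the gap between the highest muscle and the next one divided by the whole range. Among the 4 hindlimb muscles this ratio was 0.969 for Pck1, where rectus femoris was at 6.10 and the next muscle at 4.66, above Dixon's limit for 4 samples. Among all 9 muscles trapezius stood apart for Adipoq (0.616), Plin1 (0.636), Pck1 (0.542) and Lipe (0.672), above the limit for 9 samples. The ratios of trapezius for Retn (0.46), Cidec (0.423) and Fabp4 (0.427) were below that limit. Chance puts about 1 in 20 groups of replicate samples past such a limit. These are different muscles, not replicates, and both ends of every gene were looked at. The genes also move in part together and were chosen with earlier results of these data known. The ratios are therefore a description and not a test of trapezius or rectus femoris.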

How the results depend on the processing

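No paired analysis was possible because the labels give no replicate numbers that the regions share. Of 405 values of single genes under the alternatives, 385 kept their direction, 20 had the opposite sign and 0 passed the threshold. Many of these values could not change sign by construction. Averaged probe sets, trend and robust settings, only the arrays compared and the gene filter left each difference as it was. So did leaving out an array of a region not in the comparison. The differences of trapezius from the other muscles kept their direction and stayed within the spread between arrays under all 11 alternatives run for them. Genes past the threshold between hindlimb and head muscles numbered 2 in the reported fit and 1 with trend and robust settings, with only the arrays compared, with trapezius counted with the head muscles, with the value range as a term and with only the 6 wider arrays. With 1 array left out they ran from 0 (without masseter) to 19 (without soleus). Between shoulder and forelimb and head muscles they ran from 0 to 4, the 4 without digastric, and between hindlimb and shoulder and forelimb muscles they stayed at 1.

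With 1 array left out, the median of the 8 genes ran from 0.41 to 0.64 between hindlimb and head, from -1.53 (without triceps) to -0.26 (without trapezius) between hindlimb and shoulder and forelimb, and from 0.79 (without trapezius) to 1.90 (without triceps) between shoulder and forelimb and head muscles. With trapezius counted as a head muscle, an assignment that moves the highest array into that group, the hindlimb median against head muscles was -0.47 and the shoulder and forelimb median was -0.21. The hindlimb differences then were -0.41 for Adipoq, -0.0589 for Cidec, -0.77 for Plin1 and -0.77 for Pck1, and the shoulder and forelimb differences -0.0815 for Adipoq, -0.34 for Lep, -0.44 for Plin1, -1.04 for Fabp4 and -0.50 for Lipe. On the 6 wider arrays Plin1 was at -0.20 between hindlimb and head, and Lep at -0.11 between hindlimb and shoulder and forelimb muscles. Between hindlimb and head, the value range as a term gave 0.0584 for Fabp4 and 0.0327 for Lipe, and quantile normalization 0.0294 for Lipe. The cause was not tested.

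Lep was not among the genes above the median gene and had no value there. Leaving out 1 array took Plin1 from -0.0226 (without rectus femoris) to 0.34 between hindlimb and head, and Lep from -0.13 (without triceps) to 0.36 between hindlimb and shoulder and forelimb muscles. Between shoulder and forelimb and head muscles Lep ran from -0.12 to 0.36, Fabp4 from -0.53 to 0.76 and Lipe from -0.0682 to 0.62, each lowest without trapezius. Lep and, in 4 muscles, Adipoq lay below the median gene of their array, which limits what their differences can show. The same holds for Cidec in digastric and Pck1 in masseter, both head muscles. The list medians without trapezius were an alternative chosen after seeing the data.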
